A study of Mus musculus with 2 samples.

Results

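The Ly6 genes make small cell-surface proteins of the Ly-6/uPAR family, which are held in the outer membrane leaflet by a lipid (glycosylphosphatidylinositol) anchor and share a compact fold pinned by disulphide bonds. Several are used to sort mouse leukocytes: antibodies to Ly6G mark neutrophils, antibodies to Ly6C divide monocytes, and Ly6A is the stem-cell antigen Sca-1. Many members of the cluster are known to rise with interferon. The levels of 8 members, Ly6a, Ly6c1, Ly6c2, Ly6d, Ly6e, Ly6g, Ly6i and Ly6m, were measured among 55357 listed genes. The members were chosen by symbol, and the family was picked because Ly6g had already been seen in epithelial cells of these libraries, so values of Ly6g are given as a description with no test.

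The data are single-cell RNA counts from the mid-colon of mice that drank dextran sulfate sodium (DSS), a detergent-like polymer that injures the colonic lining, at 3% for 6 days. The mice were 7 weeks old and kept free of specific pathogens, and nothing in the labels names their strain or sex. There were 2 libraries, repeats of 1 group, and no untreated colon was analysed here, so no level can be set against healthy tissue. Whether each repeat was another mouse is left unsaid by the labels. The tests measure only how unevenly the classes differ between these libraries, which may be technical. A shift shared by all classes of a library is taken out by the library block and does not enter the p-values. After filtering, library 1 held 5414 cells and library 2 held 8434 cells, with a median of 7938 and 6462 unique molecular identifiers (UMIs, each standing for 1 captured RNA molecule) per cell. The libraries shared 18 cell barcodes. Cells were put into classes from marker genes that include no Ly6 gene, and the Ly6 genes were kept out of the clustering. Levels are CPM, the UMIs of a gene scaled to the same total UMI count in each class and library, from 3' tags, so they depend little on transcript length. How reads shared by near-identical members were counted is not stated, so levels of Ly6c1 and Ly6c2 are less sure beside other members. All levels are given as library 1 and library 2, with mean ± SD over n = 2 libraries.

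The class names were checked against their markers. All 7 epithelial markers passed 10 CPM in the epithelial cells, with a sum of 16864 CPM in library 1 and 18448 CPM in library 2. Their sum in other classes of the fit ran from 355 to 4253 CPM, so epithelial RNA was found in every class at a low level. The upper end, in the endothelium of library 1, rested on 1 cell, which held 1344 of 1986 epithelial-marker UMIs. All 8 neutrophil markers passed 10 CPM in the neutrophils, with sums of 319609 and 291351 CPM, against 530 and 692 CPM in the epithelium. Shares of cells with a UMI are read with this background in mind, and median depth differed widely between classes, with 17783 and 23200 UMIs per epithelial cell against 6799 and 5698 UMIs per neutrophil.

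All 8 members lie on mouse chromosome 15 (mm10, GENCODE M21), within a span of 397071 bases, and all are annotated as protein-coding genes. In chromosome order, Ly6d is at chr15:74762056-74763620 on the minus strand and Ly6m, named 2010109I03Rik in that annotation, at chr15:74876987-74897021 on the minus strand. Ly6e is at chr15:74955051-74959905 on the plus strand, Ly6i at chr15:74979534-74983430 on the minus strand and Ly6a at chr15:74994877-74998031 on the minus strand. Ly6c1 is at chr15:75044018-75048830 and Ly6c2 at chr15:75108158-75111970, both on the minus strand, and Ly6g closes the row at chr15:75155240-75159126 on the plus strand. The library kit reads the 3' ends of transcripts, so the last 500 bases of the annotated transcripts were compared. Ly6c1 and Ly6c2 were 98.2% identical there, and 35 of 411 windows of 90 bases (8.52%) were the same in both. None of the other 6 members shared a window of 90 bases with another gene. With windows of 50 bases, Ly6c1 shared 90, Ly6c2 93, Ly6a 20, Ly6i 20 and Ly6g 2 of 451 windows with some other gene. Identity over these ends was 84.5% to 89.1% in the other pairs among Ly6a, Ly6c1, Ly6c2, Ly6g and Ly6i, and 58.0% to 67.9% in the pairs with Ly6d, Ly6e or Ly6m. No label or header says how the deposited counts treated reads that fit both Ly6c1 and Ly6c2, so a low count of either where the other is high is uncertain.

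Ly6c1, Ly6c2 and Ly6g are the members with an entry in the RefSeq promoter table used (GRCm38.p6, 3 of 8). Their 250 bases before the RefSeq transcription start are shown because they are close in sequence while their genes led in different classes among the 10 in the fit: endothelium for Ly6c1, plasma cells and then neutrophils for Ly6c2, and epithelium and neutrophils for Ly6g. Each is written 5' to 3' on the strand of its gene, with capitals for GAGGAAGT, the core bound by the myeloid factor PU.1 and other ETS factors. The windows are chr15:75048838-75049087 (minus strand), chr15:75111972-75112221 (minus strand) and chr15:75155011-75155260 (plus strand). RefSeq and GENCODE M21 place these starts a few bases apart, and GENCODE starts Ly6g earlier, so the end of its window lies inside the gene as given above.
Ly6c1: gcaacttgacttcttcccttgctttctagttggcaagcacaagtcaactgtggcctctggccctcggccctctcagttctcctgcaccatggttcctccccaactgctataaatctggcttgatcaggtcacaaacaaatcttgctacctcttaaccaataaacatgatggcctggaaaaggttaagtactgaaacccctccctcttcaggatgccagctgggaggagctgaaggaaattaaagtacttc
Ly6c2: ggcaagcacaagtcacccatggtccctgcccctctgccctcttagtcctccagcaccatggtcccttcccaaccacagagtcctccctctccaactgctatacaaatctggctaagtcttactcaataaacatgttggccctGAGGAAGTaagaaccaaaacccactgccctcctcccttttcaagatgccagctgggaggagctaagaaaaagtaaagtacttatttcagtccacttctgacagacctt
Ly6g: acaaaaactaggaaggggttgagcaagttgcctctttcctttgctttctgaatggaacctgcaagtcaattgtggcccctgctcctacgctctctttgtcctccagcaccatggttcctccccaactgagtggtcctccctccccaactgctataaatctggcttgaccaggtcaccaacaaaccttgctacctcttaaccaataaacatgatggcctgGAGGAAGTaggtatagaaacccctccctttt
Over the aligned bases, Ly6c1 and Ly6g were 83.5% identical (206 bases aligned), Ly6c2 and Ly6g 80.3% (173 bases) and Ly6c1 and Ly6c2 75.9% (216 bases). GAGGAAGT, searched on both strands, was found once in Ly6c2 and once in Ly6g and not in Ly6c1, and 2.44% of 32851 promoters of the same length hold it. The C/EBP-type letters TTNNGNAA were found 0, 1 and 2 times in Ly6c1, Ly6c2 and Ly6g, and 36.9% of promoters hold them. The interferon-type letters TTCNNNGAA (the GAS) and the interferon-stimulated response element (ISRE) were in none of these 3 windows, against 7.02% and 2.98% of promoters, and nor was the GATA-type AGATAA, which 9.99% hold. These matches describe the letters and say nothing of binding.

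**Figure D1:**
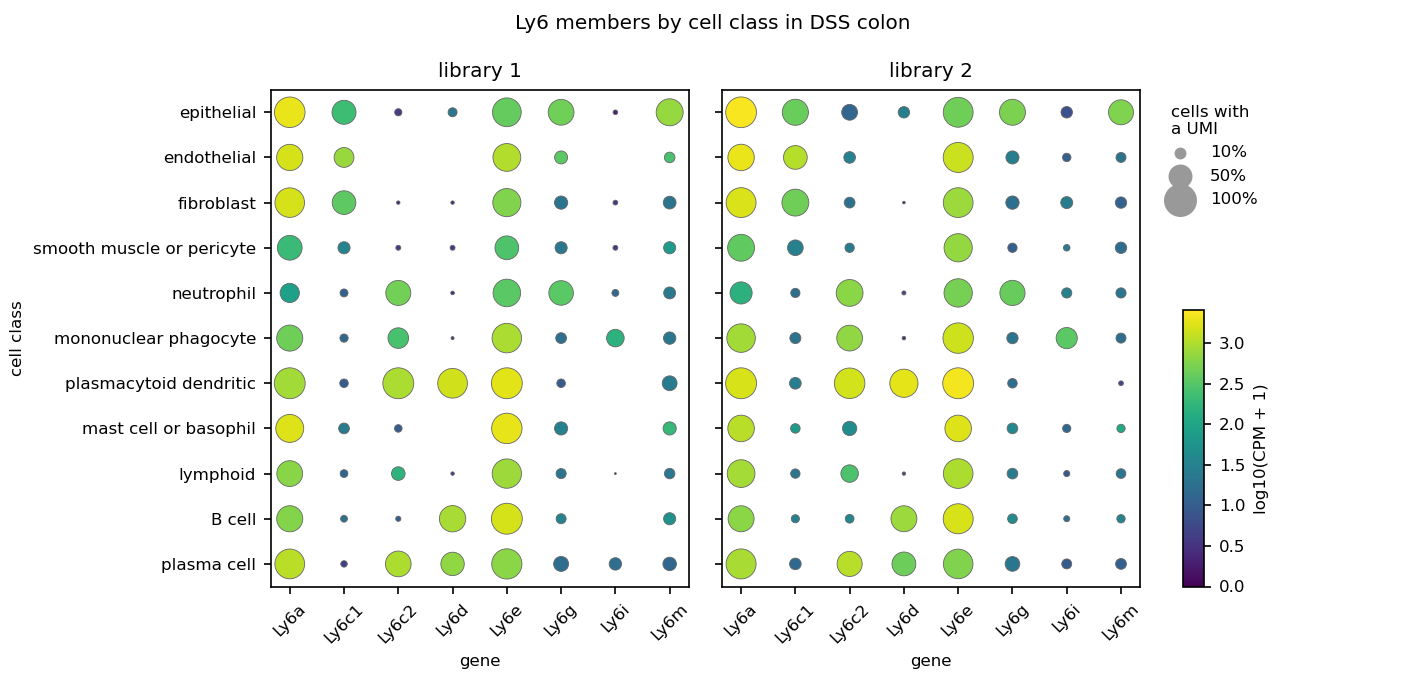
Levels of the 8 members in 11 cell classes of each library: colour gives log10(CPM + 1) and the area of a point the percentage of cells with a UMI. Ly6a and Ly6e are spread over all classes, while Ly6i sits in phagocytes, Ly6d in B, plasma and plasmacytoid dendritic cells, and Ly6g in epithelium and neutrophils.

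Ly6g, the antigen by which mouse neutrophils are usually sorted, was found at similar levels in epithelial cells and neutrophils. It had 456 and 533 CPM in the epithelium (495 ± 54.3) and 335 and 404 CPM in the neutrophils (369 ± 49.2), and in both libraries the epithelial value was the higher. A Ly6g UMI was found in 69.6% and 70.6% of epithelial cells and in 63.2% and 66.4% of neutrophils. When cells were thinned to 3000 UMIs, leaving out 73 and 36 epithelial cells and 54 and 135 neutrophils with fewer, the share was 42.2% and 45.9% in the epithelium and 47.8% and 56.5% in neutrophils, so the order of the 2 classes by share turned with depth. The order by level turned as well: the log2 ratio of epithelium over neutrophils was 0.42 in CPM, but −0.58 on the TMM scale used for the tests, which corrects for a few genes taking much of a library. In neutrophils the 8 neutrophil markers alone took 319609 and 291351 CPM. The 2 scales thus give no single order for these classes.

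Because epithelial cells were many and deep, most Ly6g molecules of the whole libraries were epithelial. The epithelium held 91.8% and 85.8% of 21107 and 21839 Ly6g UMIs, and neutrophils 4.9% and 10.0%, while epithelial cells were 33.6% and 14.3% of cells. To gauge free RNA, Ly6g UMIs were set against the UMIs of the 7 epithelial markers in each class. The epithelium had 2.71 and 2.89 Ly6g UMIs per 100 epithelial-marker UMIs. Lymphoid cells had 2.84 and 3.48, phagocytes 2.91 and 3.51, B cells 3.61 and 3.23, and plasma cells 2.82 and 3.32, close to the epithelial ratio. Fibroblasts had 4.69 and 4.32 and the endothelium 8.16 and 5.06, above it. Smooth muscle cells or pericytes had 2.07 and 1.74 and mast cells or basophils 1.54 and 1.28, below it. Neutrophils had 58.9 and 61.2, farthest from it. The endothelial 8.16 of library 1 rested on 1 cell, which held 142 of 162 Ly6g UMIs and 1344 of 1986 epithelial-marker UMIs. Ly6g in the other classes of the fit was 9.0 to 40.0 CPM, apart from the endothelium of library 1, and the part of free RNA in it was not tested.

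**Figure D2:**
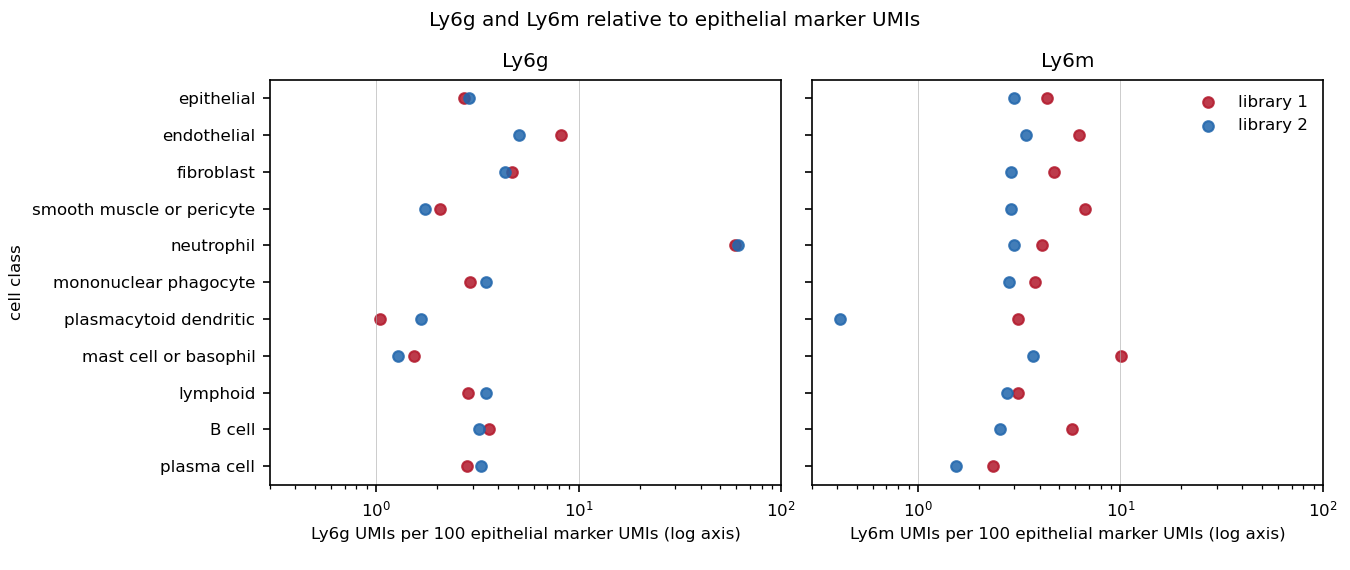
Ly6g (left) and Ly6m (right) UMIs per 100 UMIs of the 7 epithelial markers, by class and library, on a log axis. For Ly6g the neutrophils stand at 58.9 and 61.2 and the epithelium at 2.71 and 2.89. All other classes lie between 1.04 and 8.16. The 8.16 is the endothelium of library 1, where 1 cell held 142 of 162 Ly6g UMIs. For Ly6m the neutrophils, at 4.08 and 3.00, lie beside the epithelium, at 4.35 and 2.97.

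Endothelial Ly6g rested on 1 cell. The endothelium had 347 CPM of Ly6g in library 1 and 27.4 CPM in library 2. In library 1 a single cell of 52358 UMIs, 1344 of them from epithelial markers, held 142 of 162 Ly6g UMIs and 108 of 124 Ly6m UMIs. Without that cell, endothelial Ly6g was 48.2 CPM and Ly6m 38.6 CPM in library 1.

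By summed CPM, epithelial markers were not higher beside Ly6g in neutrophils. Epithelial markers summed to 535 CPM in the 275 neutrophils with a Ly6g UMI, against 647 CPM in the 160 without one, in library 1. In library 2 they summed to 620 CPM in the 616 with one, against 775 CPM in the 312 without. By share of cells the order turned. An epithelial-marker UMI was found in 98.2% of neutrophils with Ly6g against 95.6% without, and 96.8% against 93.3% in library 2. Neutrophils with Ly6g were also deeper, with a median of 7600 against 5265 UMIs, and 6211 against 4188 UMIs in library 2. The part of depth in these values was not tested. In epithelial cells the neutrophil markers were somewhat higher beside Ly6g, at 588 CPM in cells with a Ly6g UMI against 374 CPM in those without in library 1, and at 759 against 524 CPM in library 2. The part of neutrophil RNA in epithelial Ly6g was not tested beyond these sums. The epithelial subcluster highest in Ly6g had 503 and 638 CPM of neutrophil markers, within the range of the other subclusters apart from 1 that was led by neutrophil genes and left unnamed (6773 and 12043 CPM). The cells of that unnamed subcluster are counted in the epithelial sums above.

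Within the epithelium, Ly6g, Ly6m, Ly6c1, Ly6a and Ly6d were higher in colonocyte-like cells, the absorptive surface cells, than in undifferentiated cells, named from crypt-base and dividing-cell markers such as Lgr5 and Mki67. Ly6m, whose protein is little studied, had 1151 and 943 CPM in colonocyte-like cells against 25.2 and 7.4 CPM in undifferentiated cells. Its log2 fold change was 7.03 ± 0.28 (SE), with an adjusted p of 1.15e-07 in edgeR's quasi-likelihood test with Benjamini-Hochberg adjustment over all 13918 genes and the library as a block. Ly6g had 700 and 891 CPM in colonocyte-like cells, against 24.9 and 15.5 CPM in undifferentiated cells. Ly6c1 had 331 and 668 CPM against 23.2 and 65.8 CPM, a log2 fold change of 4.42 ± 0.16 (edgeR, adjusted p = 8.05e-08). Ly6a had 2725 and 3395 CPM against 562 and 819 CPM, a change of 3.04 ± 0.14 (edgeR, adjusted p = 2.21e-07). Ly6d was low throughout, with 30.3 and 47.1 CPM against 0.76 and 2.45 CPM, and changed by 5.41 ± 0.30 (edgeR, adjusted p = 5.05e-07). Only 9.57% and 16.5% of colonocyte-like cells held a Ly6d UMI, so its level came from a minority of them. Without the cell holding the most Ly6d in each library, the level was 25.6 and 42.3 CPM.

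All 7 tested members were called higher in colonocyte-like cells, where 39.1% of all genes were called higher and 35.9% lower, with a median log2 change of 3.04 over the 7 members and 0.05 over all genes. For 3 of the 7 the call hung on the scaling. Ly6e had 343 and 471 CPM in colonocyte-like cells and 426 and 379 CPM in undifferentiated cells, and changed by 0.88 ± 0.14 with TMM but by 0.01 on total counts (edgeR, adjusted p = 0.00043 and 0.94). Ly6c2, at 2.03 and 11.01 CPM against 2.90 and 11.59 CPM, changed by 0.62 ± 0.20 with TMM and −0.22 on total counts (edgeR, adjusted p = 0.0196 and 0.374). Ly6i stood at 0.8 and 5.7 CPM against 0.5 and 5.0 CPM, and its change of 1.05 ± 0.31 became 0.24 on total counts (edgeR, adjusted p = 0.0127 and 0.516). Both Ly6c2 and Ly6i were low in these cells, at or under 11.59 CPM. Total counts called the other 4, Ly6a, Ly6c1, Ly6d and Ly6m. The scaling moved the median of all genes by −0.86 in this comparison. Goblet-like cells, the mucus makers, were low like the undifferentiated cells, with 44.8 and 11.8 CPM of Ly6g and 50.7 and 27.5 CPM of Ly6m.

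Colonocyte-like subclusters differed among themselves, and several were drawn very unevenly from the libraries. Ranks below are among subclusters with at least 20 cells in each library. They leave out those with 314 and 7, 123 and 6, and 101 and 5 cells. A subcluster led by Prss22, Abo and Prss27 (208 and 22 cells) had the most Ly6g, 2178 and 2461 CPM, with 797 and 1250 CPM of Ly6c1 and 103 and 149 CPM of Ly6d. One led by Ifi211, Atp12a and Tgm2 (41 and 180 cells) had the most Ly6a, 4651 and 5240 CPM, and the largest summed level of 27 interferon-response genes among subclusters of at least 20 cells in each library, 7865 and 7420 CPM. It also had 709 and 1502 CPM of Ly6g and 2005 and 1960 CPM of Ly6m. The Prss22 subcluster, highest in Ly6g, had 1298 and 4846 CPM of the interferon genes. A subcluster led by Hao2 and Lrg1 (175 and 30 cells) was lowest in Ly6g of the colonocyte-like ones of that size, at 191 and 44.5 CPM. Ly6m followed another order: it was 282 and 221 CPM in a subcluster led by Mt4 and Myl7 that had 868 and 790 CPM of Ly6g, and 2199 and 3371 CPM in one led by Atp12a and Osmr with 624 and 855 CPM of Ly6g.

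**Figure D3:**
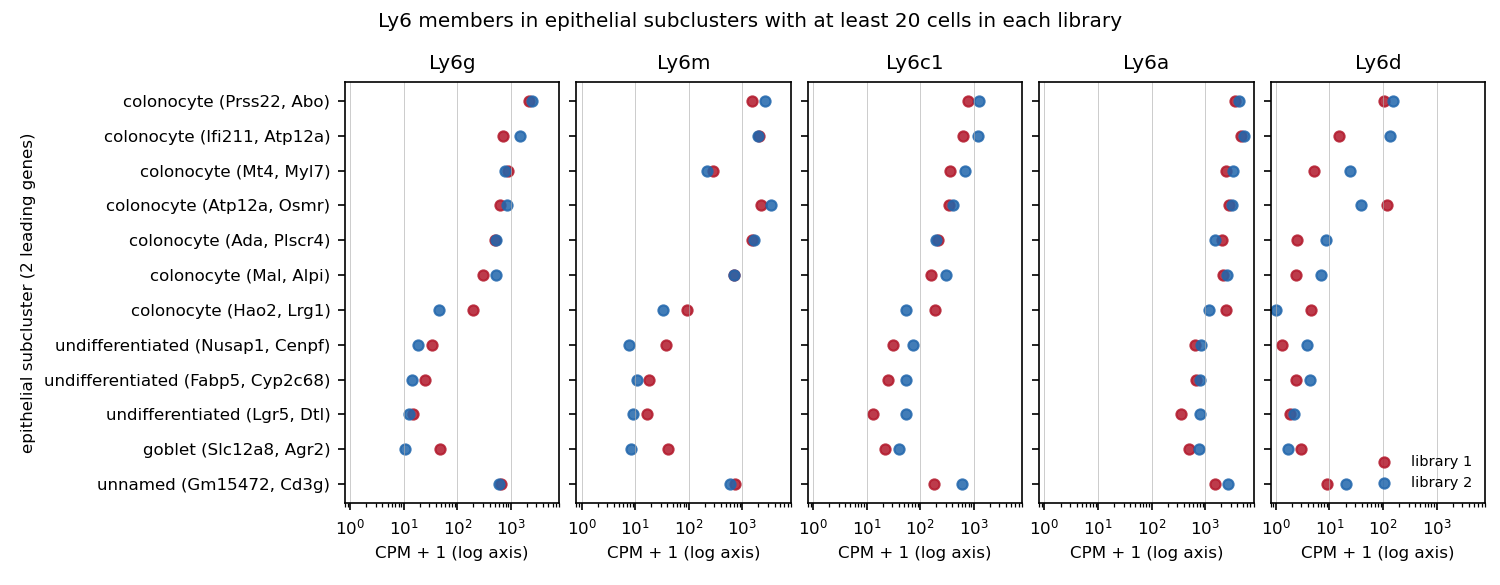
CPM + 1 (log axis) of 5 members in the 12 epithelial subclusters with at least 20 cells in each library, colonocyte-like above undifferentiated and goblet-like. Ly6g runs between 44.5 and 2461 CPM among colonocyte-like subclusters and stays under 50 CPM in undifferentiated and goblet-like ones.

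Across classes Ly6m was the most epithelial member. It had 733 and 548 CPM in the epithelium (641 ± 131), which held 97.5% and 95.5% of its UMIs. The second class, mast cells or basophils, had 190 and 110 CPM from 33 and 42 cells. That rank rested on 1 cell in each library, which held 32 of 46 and 24 of 26 of its Ly6m UMIs, and without these cells the class had 61.2 and 9.39 CPM. With them, the epithelium exceeded it by 2.57 ± 0.49 log2 units (edgeR, adjusted p = 0.00029), where 23.0% of all genes were higher. In this and the later tests of a leading class over its second, both were ranked on the sums that were then tested. The direction was thus largely set by the ranking. Neutrophils had 4.08 and 3.00 Ly6m UMIs per 100 epithelial-marker UMIs, against 4.35 and 2.97 in the epithelium. Epithelial markers themselves summed to 1886 and 2975 CPM in the mast cells or basophils, and their part in this Ly6m was not tested.

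Ly6a (Sca-1), known on blood stem cells, activated lymphocytes and endothelium, was the most abundant member in the epithelium, with 1917 and 2307 CPM (2112 ± 276) and a UMI in 98.0% and 98.9% of epithelial cells. The endothelium had 1497 and 1961 CPM (1729 ± 328), fibroblasts 1511 and 1622 CPM, and mast cells or basophils 1642 and 1092 CPM. These neighbours overlapped between libraries. On the TMM scale plasma cells came second, and the epithelium over plasma cells gave 0.46 ± 0.28 (edgeR, adjusted p = 0.19, not called), where 28.0% of all genes were higher; without TMM it was 1.05 (adjusted p = 0.0037), and without the filter on low counts 0.68 (adjusted p = 0.011). Neutrophils were lowest in CPM, at 83.1 and 147 CPM (115 ± 45.4). On the TMM scale smooth muscle cells or pericytes were lowest, at 156 and 286 CPM against 179 and 292 CPM in neutrophils. Lymphoid clusters spread widely: one led by Klra6 and Trgv2 had 106 and 155 CPM, one led by Tnfrsf4 and Cd4 had 1196 and 1316 CPM, and one led by Calca and Trdv4 had 1688 and 1996 CPM.

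Ly6c1 encodes the form of the Ly6C antigen best known from blood-vessel endothelium. It had 760 and 1042 CPM in the endothelium (901 ± 200), 361 and 441 CPM in fibroblasts (401 ± 57.0) and 216 and 417 CPM in the epithelium (316 ± 142), and at most 71.9 CPM in any library of the other 7 classes in the fit. The endothelium did not overlap the fibroblasts and exceeded them by 1.01 ± 0.20 log2 units (edgeR, adjusted p = 0.00063), where 12.3% of all genes were higher. The endothelial cluster led by Plvap and Igfbp3 (37 and 81 cells) had 1337 and 1425 CPM of Ly6c1 and 1786 and 2647 CPM of Ly6a. The cluster led by Ccl21a and Mmrn1, with the lymphatic vessel genes Prox1 and Lyve1 (31 and 53 cells), had 202 and 18.0 CPM of Ly6c1 and 1217 and 126 CPM of Ly6a. The cell rich in epithelial RNA, described above, belongs to it and held 39 of the 355 Ly6c1 UMIs and 217 of the 699 Ly6a UMIs of the endothelium of library 1.

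Ly6c2, the Ly6C gene of bone-marrow-derived leukocytes, had a near opposite distribution. Among the 10 classes in the fit it was highest in plasma cells, at 963 and 1098 CPM (1031 ± 95.1), then neutrophils, at 468 and 652 CPM (560 ± 131), phagocytes, at 257 and 674 CPM (465 ± 294), and lymphoid cells, at 157 and 275 CPM (216 ± 83.0). Plasma cells did not overlap neutrophils in CPM, but the test gave 0.52 ± 0.39 for plasma cells over neutrophils (edgeR, adjusted p = 0.29, not called), where 25.9% of all genes were higher; without TMM it was 0.94 (adjusted p = 0.041). Neutrophils overlapped phagocytes, and phagocytes overlapped lymphoid cells. The epithelium, with 3.0 and 11.7 CPM, and the endothelium, with 0 UMIs in library 1, which allows up to 6.42 CPM, and 31.3 CPM in library 2, were far below the lymphoid cells.

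Phagocyte clusters differed widely in Ly6c2. A cluster led by Dmkn, Chil3 and Vcan (236 and 540 cells) had 327 and 562 CPM, and one led by Ly6i, Slc7a2 and Anpep, with Cxcl9 (244 and 985 cells), had 376 and 954 CPM. A cluster led by Ccl8 and Cx3cr1, with the complement genes C1qa and C1qc, had 24.2 and 132 CPM, and one led by Ccr7 and Zfp366 had 47.4 and 79.8 CPM. Among neutrophils, the cluster with the granule genes Camp, Ltf and Ngp had more Ly6c2, 596 and 755 CPM, than the cluster with Cxcr2 and Csf3r, 246 and 501 CPM. Ly6g stood the other way round in CPM, at 254 and 367 CPM in the granule-gene cluster and 474 and 459 CPM in the Cxcr2 cluster. The 8 neutrophil markers took 356959 and 326749 CPM in the granule-gene cluster, against 254997 and 238752 CPM in the Cxcr2 cluster. Their part in this order of Ly6g was not tested. Among lymphoid clusters the one led by Cd8b1 had 482 and 632 CPM of Ly6c2, while the one led by Tnfrsf4 and Cd4 had 39.9 and 67.6 CPM.

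Ly6i is a member described in macrophages. Phagocytes had 154 and 336 CPM (245 ± 129) with a UMI in 32.3% and 47.0% of cells, and held 88.7% and 91.7% of all Ly6i UMIs. Neutrophils, the second class, had 12.9 and 28.1 CPM, and phagocytes exceeded them by 2.79 ± 0.41 log2 units (edgeR, adjusted p = 1.04e-05), where 28.5% of all genes were higher; in DESeq2 the adjusted p was 0.052. The cluster that Ly6i led, with Slc7a2 and Cxcl9, had 418 and 718 CPM. The cluster with Prtn3 and Ccr2 had 81.2 and 120 CPM, the one with Ccl8 and Cx3cr1 102 and 78.8 CPM, and the one with Chil3 and Vcan 9.2 and 44.9 CPM. The Chil3 cluster thus resembled the Ly6i-led cluster in its Ly6c2 and not in its Ly6i.

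**Figure D4:**
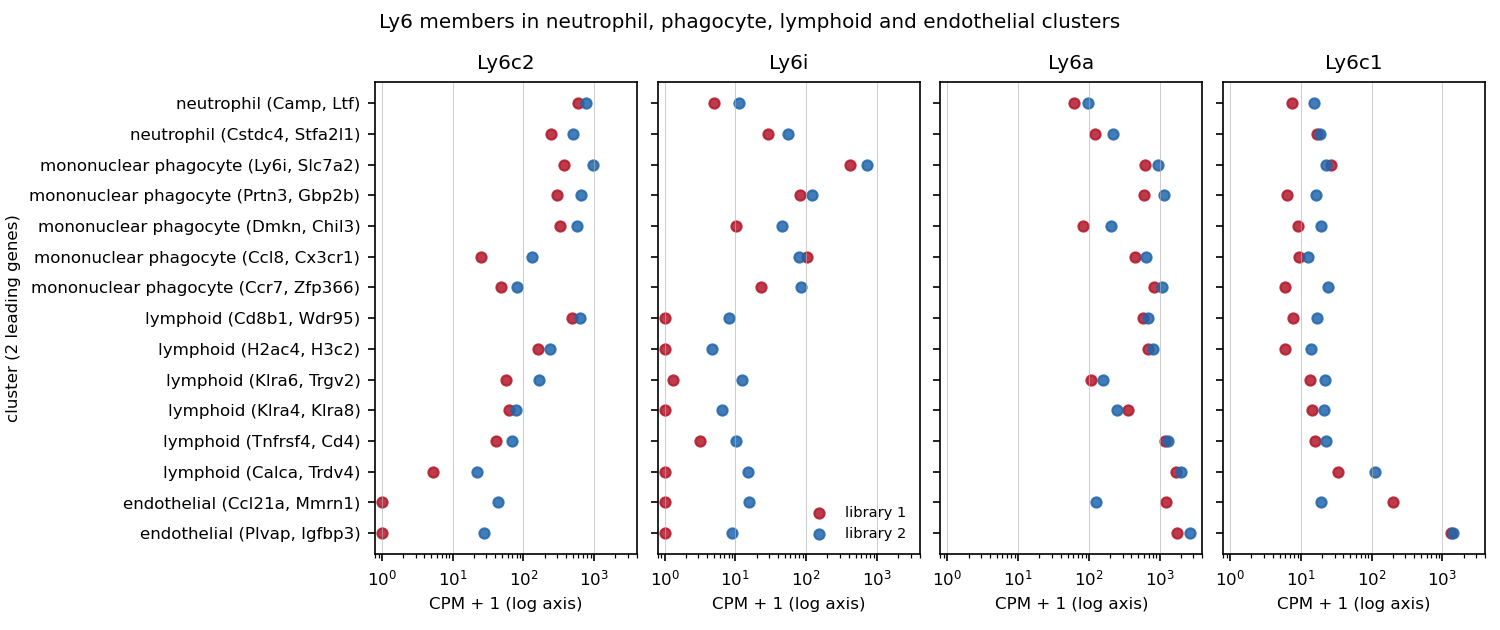
CPM + 1 (log axis) of Ly6c2, Ly6i, Ly6a and Ly6c1 in each neutrophil, phagocyte, lymphoid and endothelial cluster, 1 point per library. Ly6i peaks in 1 phagocyte cluster (418 and 718 CPM) and Ly6c1 in the endothelial cluster led by Plvap (1337 and 1425 CPM), while Ly6c2 is spread over granule-gene neutrophils, phagocytes and Cd8b1 lymphoid cells.

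Ly6d, a marker of B-lineage commitment in bone marrow, had 678 and 432 CPM in plasma cells (555 ± 174) and 903 and 770 CPM in B cells (837 ± 93.9). Plasma cells over B cells gave 0.34 ± 0.23 on the TMM scale and −0.59 on total counts, and neither was called (edgeR, adjusted p = 0.35 and 0.058), where 13% of all genes were higher. Plasmacytoid dendritic cells, which were too few for the tests at 13 and 42 cells, had 1424 and 1834 CPM of Ly6d, the highest of any named class. They also had 933 and 1479 CPM of Ly6c2 and 1753 and 2208 CPM of Ly6e. The epithelium had 19.7 and 27.7 CPM of Ly6d, with 776 of 835 and 915 of 975 of its UMIs in colonocyte-like cells, and the endothelium and mast cells or basophils had 0 Ly6d UMIs in either library, which allows up to 6.42 and 2.93 CPM in the endothelium and 12.4 and 12.7 CPM in the mast cells (3 counts per library, counting error only).

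Ly6e, known as an interferon-induced restriction factor of some viruses and a receptor in placenta formation, was the most even member. Mast cells or basophils had 1898 and 1676 CPM (1787 ± 157), B cells 1520 and 1575 CPM (1548 ± 38.5), the endothelium 1015 and 1329 CPM and phagocytes 916 and 1368 CPM. In CPM the epithelium, with 397 and 447 CPM (422 ± 35.6), and neutrophils, with 336 and 492 CPM (414 ± 110), were lowest. The low rank of neutrophils did not hold on the TMM scale, where they had 725 and 976 CPM. There smooth muscle cells or pericytes were lowest, with 216 and 553 CPM, and the epithelium had 435 and 434 CPM. Mast cells over phagocytes, the second class on the TMM scale, gave 0.13 ± 0.27 (edgeR, adjusted p = 0.80), where 11.4% of all genes were higher.

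Each class was then set against the mean of the other 9 for the 7 tested members, in 1 edgeR fit over 20 library-by-class sums and 13939 genes with Benjamini-Hochberg adjustment. Of 70 pairs, 22 were called higher and 22 lower. The epithelium had 4 members higher, Ly6m (4.39 ± 0.23), Ly6d (3.32 ± 0.42), Ly6c1 (2.95 ± 0.13) and Ly6a (1.65 ± 0.18), and 3 lower, Ly6c2 (−3.53), Ly6i (−2.04) and Ly6e (−0.98), where 36.1% and 20.5% of all genes were higher and lower. The endothelium had Ly6c1 (4.27), Ly6m (1.10) and Ly6a (0.90) higher and Ly6c2 lower, with 20.3% and 10.1% of all genes. The Ly6m call did not hold: it was −0.99 without library 1 and −1.37 at a mitochondrial limit of 10%. Fibroblasts had Ly6c1 and Ly6a higher and Ly6c2 and Ly6m lower, with 26.7% and 17.0% of genes. Smooth muscle cells or pericytes had 0 higher and 4 lower, Ly6c2, Ly6a, Ly6c1 and Ly6e, with 22.0% and 13.1%.

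Phagocytes had Ly6i (5.16 ± 0.25), Ly6c2 (3.37 ± 0.25) and Ly6e (0.73 ± 0.19) higher and Ly6c1 and Ly6m lower, where 29.2% and 15.3% of genes were higher and lower. Neutrophils had Ly6c2 (4.84 ± 0.24) and Ly6i (2.05 ± 0.39) higher and Ly6a (−1.93) and Ly6c1 (−1.02) lower, with 27.9% and 27.3%, and Ly6c1 turned to 0.40, not called, when doublets were kept. Plasma cells had Ly6d, Ly6c2 (5.41 ± 0.24) and Ly6a (1.15 ± 0.19) higher and Ly6c1 and Ly6m lower, with 19.2% and 15.9%. B cells had Ly6d and Ly6e (0.72 ± 0.19) higher and Ly6a, Ly6c1 and Ly6c2 lower, with 16.7% and 14.2%. Lymphoid cells had Ly6c2 (1.80 ± 0.28) higher and Ly6c1, Ly6i and Ly6m lower, with 29.2% and 17.8%. Mast cells or basophils had Ly6m (1.53) and Ly6e (0.87) higher and 0 lower, with 10.2% and 6.18%, and the Ly6m call rested on the same single cells, with 61.2 and 9.39 CPM without them. Some calls hung on 1 setting. Ly6a in fibroblasts lost its call with doublets kept and at Leiden resolution 0.5 (edgeR, adjusted p = 0.20 and 0.069), Ly6m in mast cells or basophils with doublets kept (0.23), Ly6m in plasma cells with at least 500 genes per cell (0.096) and Ly6a in B cells on total counts (0.28). Without the library block, Ly6m in the endothelium, mast cells, phagocytes and plasma cells, Ly6a and Ly6c2 in B cells and Ly6i in lymphoid cells were not called (edgeR, adjusted p between 0.054 and 0.13). Fold changes of Ly6d in the epithelium, B cells and plasma cells depend on the fit, because classes with no Ly6d UMI enter the mean they are set against.

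Members were next followed within single cells, without a test. Epithelial cells held a median of 4 and 5 of the 8 members, plasma cells 4 and 4, neutrophils and phagocytes 3 and 3, and lymphoid cells 2 and 2. Among neutrophils, Ly6c2 was found in 73.8% of cells with a Ly6g UMI against 51.2% of those without in library 1, and in 82.3% against 61.2% in library 2. After thinning to 3000 UMIs the shares were 53.3% against 52.3% and 72.1% against 64.6%. Before thinning, the neutrophils with a Ly6g UMI had a median of 7600 and 6211 UMIs, against 5265 and 4188 UMIs in those without. Thinning also changes which cells count as holding Ly6g, and the part of depth in the gap was not tested further.

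In the epithelium gaps were seen at equal depth as well. Ly6m was found in 84.0% of epithelial cells with a Ly6g UMI against 58.7% of those without, and in 77.6% against 35.7% in library 2. Thinned, these were 77.9% against 42.2% and 67.7% against 24.7%. Ly6c1 went with Ly6g likewise, at 49.1% against 19.7% and 70.1% against 22.5% after thinning. Ly6e did not, at 55.0% against 59.0% and 68.8% against 61.6%. Epithelial cells with and without Ly6g differ in how many are colonocyte-like, and the gap within a subcluster was not tested. In phagocytes, Ly6c2 was found in 46.5% of cells with a Ly6i UMI against 28.2% of those without, and in 64.8% against 49.5%, after thinning. With all UMIs, not thinned, Ly6a in the endothelium was in 96.4% of cells with a Ly6c1 UMI against 55.0% of those without, and in 92.4% against 45.5%. Thinned, library 2 gave 96.7% against 47.6%, and library 1 had too few cells.

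How often the near-identical pair Ly6c1 and Ly6c2 was found together depended on which was counted first. Of neutrophils with a Ly6c2 UMI, 7.02% and 9.89% also held Ly6c1, and of such phagocytes 6.25% and 13.6%. Of epithelial cells with a Ly6c1 UMI, 6.19% and 29.0% held Ly6c2, while of the fewer with a Ly6c2 UMI, 68.0% and 78.6% held Ly6c1. Of neutrophils with a Ly6c1 UMI, likewise few, 69.0% and 83.1% held Ly6c2. In the endothelium of library 1, 28 cells held Ly6c1 and 0 held Ly6c2.

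**Figure D5:**
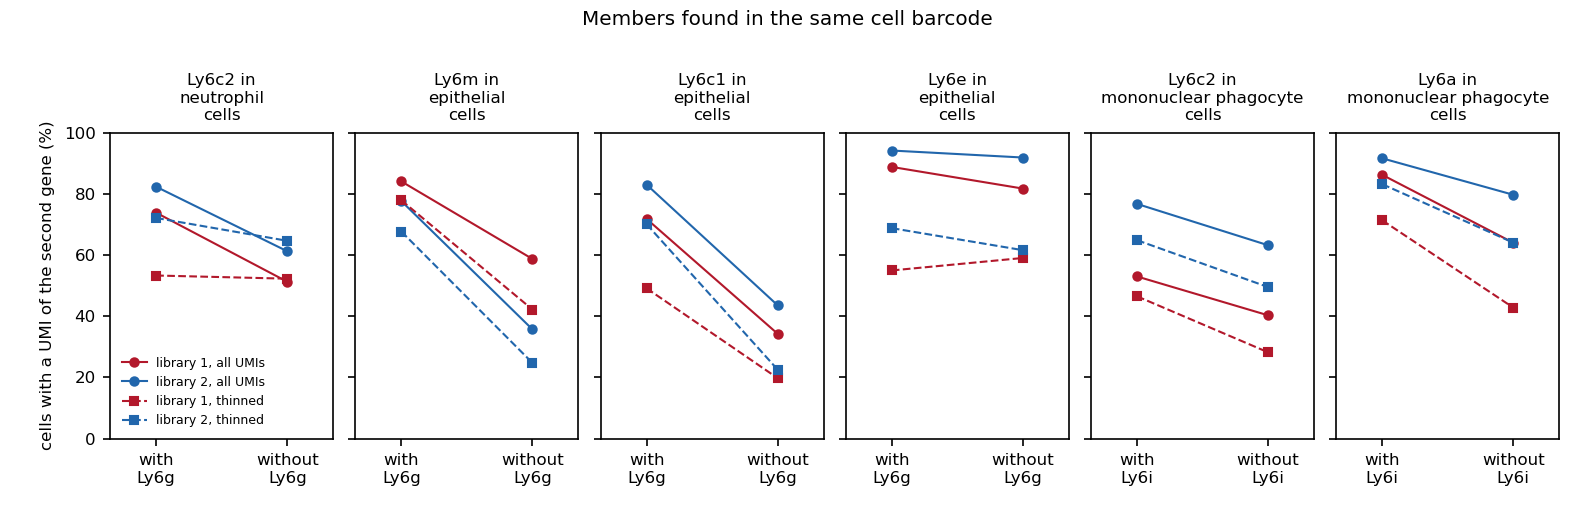
Percentage of cells with a UMI of a second member among cells with (left) and without (right) a UMI of Ly6g or Ly6i, per library, for all UMIs (solid) and after thinning to 3000 UMIs (dashed). In neutrophils the lines for Ly6c2 flatten on thinning, to 53.3% against 52.3% in library 1, while those for Ly6m and Ly6c1 in the epithelium stay steep.

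Genes with patterns most like each member were taken by Pearson's r of log2(CPM + 1) over the 20 class sums, among 9445 genes with a mean of at least 10 CPM. The sums share libraries, so r is a description. Ly6g was nearest to Mgam, an intestinal brush-border maltase (0.943), Pglyrp1, a granule protein that binds bacterial wall (0.918), and Dhrs9 (0.883). Ly6m was nearest to Myh14 (0.982), Sprr2a3 (0.982) and Muc3 (0.981), a mucin of the enterocyte surface. Ly6i was nearest to Clec4a1 (0.912), and Csf1r, the macrophage growth factor receptor, was at 0.895. Ly6d was nearest to the light-chain gene Iglc2 (0.940) and to Vpreb3 (0.897), Ly6c1 to S100a16 (0.932), Ly6c2 to Pik3r5 (0.840), Ly6a to Pigt (0.920), which acts in attaching lipid anchors, and Ly6e to Ddx41 (0.906). Between members, r was highest for Ly6g and Ly6m (0.648) and lowest for Ly6c1 and Ly6c2 (−0.699).

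Of 37 other listed genes of the Ly-6/uPAR family, 11 had enough counts for the fit. The epithelium had 5 higher, among them Gml (5.16), Lypd8l (4.99), Gml2 (4.62) and Ly6g2 (4.50), and 1 lower, Plaur, where 36.1% and 20.5% of all genes were higher and lower, so the count of higher genes is near that share. Lypd8, which keeps flagellated bacteria off the colonic surface, was the most abundant, at 14032 and 12544 CPM in the epithelium. Colonocyte-like cells had 8 of 11 higher and 0 lower than undifferentiated cells, where 39.1% and 35.9% of all genes were called, led by Gml (8.03) and Gml2 (6.59). Neutrophils had Ly6a2 and Plaur, the urokinase receptor, higher and Lynx1 lower, 2 and 1 of 11 where 27.9% and 27.3% of all genes were called. Ly6a2 had 160 and 195 CPM in neutrophils and 54.2 and 80.6 CPM in phagocytes, against 0.33 and 0.82 CPM in the epithelium. Gpihbp1, which carries lipoprotein lipase in capillaries, had 114 and 135 CPM in the endothelium.

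A list of 27 interferon-response genes, all in the fit, was set beside the members. Phagocytes had 23 higher and 0 lower, where 29.2% and 15.3% of all genes were called, the endothelium 14 and 0 (20.3% and 10.1% of all genes), and neutrophils 17 and 5 (27.9% and 27.3%). The epithelium had 12 and 6 (36.1% and 20.5%) and fibroblasts 8 and 5 (26.7% and 17.0%), near the shares over all genes. Plasma cells had 2 higher and 19 lower (19.2% and 15.9%), B cells 1 and 10 (16.7% and 14.2%) and mast cells or basophils 0 and 11 (10.2% and 6.18%). Lymphoid cells had 5 and 9 (29.2% and 17.8%), and smooth muscle cells or pericytes 6 and 4 (22.0% and 13.1%). The median log2 difference was 1.23 in phagocytes, against 0.07 over all genes, and −1.69 in plasma cells, against −0.16. Colonocyte-like over undifferentiated cells gave 24 higher and 1 lower, the chemokine Cxcl10, where 39.1% and 35.9% of all genes were called. The median there was 2.24 against 0.05 over all genes. In the same comparison Ly6a, Ly6c1, Ly6d and Ly6m were higher under both scalings. In plasma cells, where 19 of the 27 were lower, Ly6c2 was higher, and Ly6a was higher with TMM but not called on total counts (0.44, edgeR adjusted p = 0.081). Counts of both lists are given on the TMM scale alone.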

How the data were processed

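The authors deposited 2 tables of raw UMI counts per gene and cell barcode, made with Cell Ranger (7.0.0 per the file headers, 8.0.0 per the submitters' processing notes) on mm10. The labels' protocols name both a V3 and a v2 3' kit. The tables held 76622643 UMIs in 6597 barcodes and 94204110 UMIs in 9611 barcodes. No source used here says how reads shared by near-identical genes were counted.

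Barcodes with at least 200 genes and under 20% mitochondrial UMIs were kept (36 and 9 had fewer genes, and 840 and 475 of the rest more mitochondrial UMIs), and 307 and 693 doublets called by Scrublet at 0.8% per 1000 cells were removed. Cells were normalised to 10000 UMIs and clustered in scanpy 1.11.5 on 2000 variable genes (Ly6 members, the other Ly-6/uPAR genes and the interferon list left out), 30 components and 15 neighbours at Leiden resolution 1.0. Clusters took the class whose markers led; a name needed at least 3 detected markers, and the naming score was set after the clusters were seen. The members and gene lists were chosen with earlier results of these data known. All members are named in every class, the 3 genes nearest to each member by r, and up to 4 called genes of each list with the largest change.

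UMI counts were added up within each library and class (at least 20 cells in each library, 10 classes) and tested with edgeR 4.0.16 in R 4.3.3: quasi-likelihood test, TMM scaling, filterByExpr, library number as a block, Benjamini-Hochberg adjustment over all genes, called at 0.05. The block follows the design, because the classes within a library are cells of the same sample. The leading and second class of each member were ranked by mean TMM-scaled CPM in the same sums. Their p-values take no account of this choice among the 10 classes. The test was also run on simulated sums drawn from a profile shared by all classes, with some genes raised in a single class. These sums lacked the class and library differences of the real data, so they do not show how the test performs here. Epithelial subclasses had a fit of their own with 6 sums and 2 residual degrees of freedom. SEs are those implied by the fold change and its F statistic. Shares of cells were also taken after thinning each cell to 3000 UMIs, without the cells that held fewer. Clusters that met no name (212 and 260 cells), 13 mesothelial cells and 55 plasmacytoid dendritic cells were left out of the class fit. The epithelial subclusters led by neutrophil or T-cell genes were left out of the subclass fit only. Their cells count as epithelial in all class values, tests and co-detection. Alternatives were DESeq2 1.42.0, total counts in place of TMM, no filter on low counts, no block, stricter cell filters, doublets kept, other clusterings and each library left out. Transcript ends were aligned with Biopython 1.88. Genome positions and transcripts are from GENCODE M21, in which 52081 of the 55357 gene IDs were found.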

Additional observations from a re-analysis of the deposited data

Results flagged for a closer look

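Barcodes removed for having over 20% mitochondrial UMIs enter no comparison above, and there is no control sample to set them against. In the 840 such barcodes of library 1, Ly6a had 816 CPM, Ly6m 451 CPM, Ly6g 218 CPM, Ly6e 197 CPM, Ly6c1 78.9 CPM, Ly6d 18.0 CPM, Ly6c2 7.91 CPM and Ly6i 2.16 CPM, where 3 counts allow 0.719 CPM. In the 475 of library 2, Ly6a had 787 CPM, Ly6m 374 CPM, Ly6e 272 CPM, Ly6g 183 CPM, Ly6c1 101 CPM, Ly6c2 26.3 CPM, Ly6i 13.7 CPM and Ly6d 5.36 CPM, where 3 counts allow 1.46 CPM. In both libraries Ly6a and Ly6m, the members highest in the epithelium, were also the highest in these barcodes.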

How the results depend on the processing

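Of 630 values of single members under the alternatives, 543 kept their direction and their side of the threshold or moved by less than the spread, 21 lost the call, 3 gained it, 57 moved by more than the spread (each with a library left out) and 6 changed sign. The spread is here the SE of the main fit. Values held less often with a library left out: 31 of 58 without library 1 and 26 of 58 without library 2. The signs that changed were Ly6c1 in neutrophils with doublets kept (0.40), Ly6m in the endothelium at a mitochondrial limit of 10% (−1.37) and without library 1 (−0.99; 2.02 without library 2), Ly6c2 in colonocyte-like cells (−0.22) and Ly6d in plasma over B cells (−0.59) on total counts, and Ly6e in mast cells over phagocytes without library 1 (−0.17). The cause was not tested. The log2 ratio of Ly6g in epithelium over neutrophils was 0.42, but −0.58 with TMM-scaled CPM, an alternative chosen after seeing the data, and 0.35 with doublets kept. With total counts 5 leading classes were called over their second class in place of 3, and 4 of 7 members in colonocyte-like cells in place of 7. Total counts moved the median of all genes by −1.14 in neutrophils, −0.67 in plasma cells and −0.86 in colonocyte-like cells, and by −0.18 to 0.44 in the other classes. The share of all called genes that were higher moved with it, on total counts against TMM, to 19.3% against 50.5% in neutrophils, 19.8% against 54.7% in plasma cells, 25.1% against 52.1% in colonocyte-like cells, 51.9% against 65.6% in phagocytes and 62.0% against 63.7% in the epithelium, and to between 73.6% and 88.8% against between 54.1% and 66.7% in the other 6 classes. The gap in Ly6c2 between neutrophils with and without Ly6g was 4.25 percentage points after thinning in place of 21.8, and that in epithelial Ly6c1 was 43.7 with doublets kept in place of 38.5. Without the replicate block, 3 leading classes, 20 pairs higher, 17 lower and 5 colonocyte-like members were called. In that setting Ly6c2 and Ly6i in colonocyte-like cells lost their calls, as under DESeq2. Leaving out each library gave 456 to 533 CPM of epithelial and 335 to 404 CPM of neutrophil Ly6g, a log2 ratio of 0.40 to 0.45, and co-detection gaps of 21.1 to 22.6 (Ly6c2 in neutrophils), 25.3 to 41.9 (Ly6m in epithelium), 37.6 to 39.5 (Ly6c1 in epithelium) and 41.4 to 47.0 points (Ly6a in endothelium). With 1 library there is no test, so no calls were counted then, and thinned endothelial values of library 1 had too few cells.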

Other observations

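Cells left out of the class fit or of the epithelial subclass fit also carried members. The enteroendocrine-like cells and the unnamed epithelial subclusters below are counted as epithelial in the class values. The 13 mesothelial cells, all from library 2, had 2410 CPM of Ly6a and 3518 CPM of Ly6e. Enteroendocrine-like cells, the hormone makers of the epithelium (29 and 11 cells), had 236 and 191 CPM of Ly6a, 282 and 260 CPM of Ly6e and 21.5 and 4.9 CPM of Ly6g, so they were unlike the colonocyte-like cells beside them. The unnamed epithelial subcluster led by the T-cell genes Cd3g and Icos (28 and 26 cells) had 642 and 596 CPM of Ly6g, and the one led by neutrophil genes (73 and 16 cells) had 342 and 1637 CPM. Clusters that met no class name had 284 and 105 CPM of Ly6g, 203 and 255 CPM of Ly6m and 67.1 and 212 CPM of Ly6i.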
